A study of Mus musculus with 8 samples.

Results

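The genes that encode the mitochondrial respiratory chain and the ATP synthase were followed across whole mouse colon of 2 strains with and without a working Il10 gene. A gene was taken as a member where its symbol named a subunit of complex I (Nduf), complex II (Sdha to Sdhd), complex III (Uqcr), complex IV (Cox4 to Cox8), the ATP synthase (Atp5) or cytochrome c (Cycs), and where the platform annotation gave its probe set that symbol alone. This rule found 99 probe sets of 72 genes, out of 8251 genes with a single symbol on the array. Each gene was read by the probe set with the highest mean over the arrays. The 72 genes comprised 29 of complex I, 2 assembly factors of complex I that share the Nduf prefix (Ndufaf1 and Ndufaf4), 4 of complex II, 7 of complex III, Cycs, 15 of complex IV and 14 of the ATP synthase. A further 10 probe sets whose symbols fit were left aside because they carried several symbols.

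The respiratory chain sits in the inner mitochondrial membrane. Complexes I and II pass electrons from NADH and succinate to ubiquinone, complex III hands them to cytochrome c, and complex IV transfers them to oxygen. Complexes I, III and IV pump protons as they do so, and the ATP synthase lets the protons back to make ATP. In the colon this machinery is known for burning butyrate, the main fuel of the surface epithelium. Many of the nuclear genes for it are known targets of the transcription factor NRF1 and of the ETS factor GABP, also called NRF2.

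Samples were 8 pools of total colon RNA, 2 pools for each of 4 groups, each pool on 1 Affymetrix MG_U74Av2 array. The groups were C57BL/6J wild type, C57BL/6J-Il10tm1Cgn, C3H/HeJBir wild type and C3H/HeJBir-Il10tm1Cgn, where Il10tm1Cgn is a targeted allele of the gene for the anti-inflammatory cytokine interleukin 10 (pools with it are called Il10-null here), known as a model of colitis. The C57BL/6J pools held 5 animals each, the C3H/HeJBir pools 4, except the C3H/HeJBir Il10-null sample 1 pool, which held 5. An age, 4 weeks, was given for the C57BL/6J wild type sample 2 pool, while the sources used here give no sex. Values are the deposited intensities on a linear scale, and differences are log2 differences of intensity plus 11.07, with their standard error. The labels call the second pool of a group an independent replicate of the first, without saying how the animals were housed or bred, and p-values measure the spread between these pools.

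Array medians ran from 60.1 to 62.2 in the sample 1 pools and from 50.1 to 54.9 in the sample 2 pools. The C3H/HeJBir Il10-null sample 1 pool stood apart from the other pools in its cell markers. Its summed intensity of 9 smooth muscle genes was 10031 against 12150 to 17637 in the other pools, and that of 8 neutrophil genes was 956 against 267 to 396. Summed over 8 exocrine pancreas genes, the sample 1 Il10-null pools read 3529 and 4891, against 1277 to 2729 in the other 6 pools. Genes induced by interferon gamma, 13 of them tested, had a median Il10-null minus wild type difference of 1.23 for C57BL/6J and, for C3H/HeJBir, 1.06. The Il10-null pools were uneven in these genes. Summed over the 14 on the array, C57BL/6J read 2622 and 2548 in wild type and 3937 and 9790 in Il10-null. C3H/HeJBir read 3648 and 4656 in wild type and 14983 and 5862 in Il10-null. Hybridisation was spread over 3 days. The sample 1 Il10-null pools, the sample 1 wild type pools and all sample 2 pools each had a day of their own, so that Il10 genotypes shared a day only among the sample 2 pools. The probe set for Il10 itself lay below the filter on low intensity and read higher in the Il10-null pools (22.0 to 51.7) than in the wild type pools (5.43 to 10.9). No source used here places its probes inside or outside the targeted stretch, so it checks no label.

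Of the 72 genes, 65 (90.3%) passed the filter on mean intensity. Since the brightest probe set of each gene was taken, this share has no match among all probe sets, and over every probe set of the members 74 of 99 (74.7%) passed, against 7453 of 12422. The 7 that did not were Ndufa1, Ndufa12, Ndufc2, Cox5a, Cox6a2, Cox8a and Atp5j2. Cox5a and Cox8a encode complex IV subunits that most tissues use, and their probe sets nevertheless read between 1.29 and 31.2. The tested genes covered 26 of 29 for complex I, both assembly factors, all of complexes II and III, Cycs, 12 of 15 for complex IV and 13 of 14 for the ATP synthase. The brightest probe sets having been chosen, their range over pools is given as a description. The highest pool exceeded the lowest by a median of 1.45-fold, against 1.90-fold over all 7453 tested probe sets, and stayed under 1.5-fold for 37 of 65 (56.9%) against 19.2%. Atp5a1, the catalytic-core alpha subunit of the ATP synthase, ran only from 3022 to 3324 over the 8 pools. Cox6a1, Uqcr10 and Sdhb each varied by less than 1.2-fold. At the other end, 11 of 65 (16.9%) varied by more than 2-fold, against 44.0% of all tested probe sets, led by Cox6b1 (5.66-fold) and Atp5g1 (3.32-fold).

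The promoters of 4 genes are printed here because their values are given pool by pool, 3 of them for their differences between groups (Cox7a1, Cox6b1, Ndufaf1) and Cycs as the single gene of its step. The sequences are RefSeq's for GRCm38.p6, from 250 bases before to 50 after the annotated start, on the strand of the gene. Capitals mark the core of the NRF1 site (GCATGCGC), an ETS site (CCGGAAG) or a CCAAT box, each on either strand. Cox7a1 lies at chr7:30183921-30184220 on the plus strand, Cox6b1 at chr7:30626065-30626364 on the minus strand, Ndufaf1 at chr2:119662785-119663084 on the minus strand and Cycs at chr6:50566520-50566819 on the minus strand.
Cox7a1: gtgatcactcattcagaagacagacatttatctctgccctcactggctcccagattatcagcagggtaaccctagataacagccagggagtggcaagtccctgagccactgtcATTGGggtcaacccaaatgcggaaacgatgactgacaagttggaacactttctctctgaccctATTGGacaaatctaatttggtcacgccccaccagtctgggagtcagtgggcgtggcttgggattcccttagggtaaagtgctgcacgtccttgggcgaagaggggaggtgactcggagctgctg
Cox6b1: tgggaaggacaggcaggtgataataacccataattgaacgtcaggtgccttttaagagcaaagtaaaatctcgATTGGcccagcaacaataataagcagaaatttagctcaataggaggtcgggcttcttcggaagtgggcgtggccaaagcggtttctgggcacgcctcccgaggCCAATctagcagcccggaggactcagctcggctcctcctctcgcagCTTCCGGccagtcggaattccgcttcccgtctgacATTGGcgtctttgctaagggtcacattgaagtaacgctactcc
Ndufaf1: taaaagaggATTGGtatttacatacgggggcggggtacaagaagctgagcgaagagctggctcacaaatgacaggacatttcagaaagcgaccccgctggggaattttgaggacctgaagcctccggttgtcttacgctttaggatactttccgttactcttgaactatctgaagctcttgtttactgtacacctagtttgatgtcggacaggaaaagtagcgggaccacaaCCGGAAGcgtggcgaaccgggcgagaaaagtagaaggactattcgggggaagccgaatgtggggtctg
Cycs: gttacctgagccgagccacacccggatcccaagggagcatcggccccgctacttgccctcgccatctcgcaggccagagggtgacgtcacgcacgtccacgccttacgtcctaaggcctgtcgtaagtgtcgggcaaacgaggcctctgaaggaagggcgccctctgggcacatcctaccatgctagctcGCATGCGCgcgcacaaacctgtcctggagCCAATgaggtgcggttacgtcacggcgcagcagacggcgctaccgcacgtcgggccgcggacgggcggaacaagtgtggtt

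Among these promoters, Cycs held the NRF1 core, beginning 60 bases before the start, with a CCAAT box after it. Ndufaf1 and Cox6b1 held an ETS site close to the start, beginning 18 and 28 bases before it. Cox7a1 held neither, and carried 2 CCAAT boxes on the opposite strand. A promoter was found for 59 of the 72 genes. The NRF1 core was in 11 of the 59 (18.6%), against 3.05% of 27025 genes with a promoter in the same table, and the ETS site was in 16 (27.1%) against 9.93%. The CCAAT box was in 25 (42.4%) against 41.1%. None of the motifs contains another, and a match describes letters in this window, not a bound site.

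In C57BL/6J colon most genes of the chain read lower in the Il10-null pools, by small amounts. The median difference over the 65 tested genes was -0.12 against -0.01 over all tested probe sets, and 49 of 65 (75.4%) were lower in the Il10-null pools, against 51.1% of all. None passed the threshold in limma with Benjamini-Hochberg adjustment over all 7453 probe sets, where 0% of all passed, and at an unadjusted p under 0.05 there were 2 of 65 (3.08%), against 1.58% of all. In 19 of 65 genes both Il10-null pools lay below both wild type pools, against 13.6% of all tested probe sets, and in 5 both lay above, against 12.6%. The 95% confidence interval of the difference lay within 2-fold in either direction for 54 of 65 genes (83.1%), against 69.0% of all tested probe sets.

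By complex, the medians in C57BL/6J were -0.17 for complex I (21 of 26 lower), -0.14 for complex III (6 of 7 lower), -0.13 for complex IV (10 of 12 lower) and -0.09 for the ATP synthase (10 of 13 lower). Leaving out each pool in turn, the medians ran from -0.228 to -0.105 for complex I, from -0.185 to -0.0819 for complex IV and from -0.246 to -0.0275 for complex III. That of the ATP synthase was -0.160 between the sample 1 pools and -0.018 between the sample 2 pools, and 0.048 without the Il10-null sample 1 pool. Complex II had a median of 0.11, with 3 of its 4 genes higher, but it was -0.088 between the sample 1 pools and 0.192 between the sample 2 pools, and -0.081 without the Il10-null sample 2 pool. For complex I, the median deviation from the mean over all pools was 0.059 and 0.148 in the wild type pools and -0.045 and -0.067 in the Il10-null pools, which did not overlap. The difference over all members was the same size within each sample number, at -0.110 between the sample 1 pools and -0.104 between the sample 2 pools, which shared a hybridisation day. It was -0.062, with 38 of 65 lower (58.5%), without the Il10-null sample 1 pool, against -0.022 and 52.9% lower over all probe sets. Without the wild type sample 2 pool it was -0.088 against -0.038 over all. Without the wild type sample 1 pool it was -0.11 against 0.017, and without the Il10-null sample 2 pool -0.131 against 0.020. In these bulk samples, fewer cells of a type and less RNA per cell cannot be told apart. Genes for the cytosolic ribosome, a comparison list outside mitochondria, also read lower, with 23 of 25 lower and a median of -0.09. Of the epithelial lists, 4 of 6 goblet cell genes were lower (median -0.10), and their summed intensity was 37832 and 39035 in wild type and 35001 and 36157 in Il10-null, without overlap. Absorptive colonocyte genes had a median of -0.02 (5 of 9 lower) and summed to 30372 and 35754 against 30034 and 34671, and general epithelial genes a median of 0.04 (6 of 8 higher). Smooth muscle genes had a median of -0.24 (8 of 9 lower) and fibroblast genes one of -0.27 (8 of 8 lower). By pool, the median deviation of the smooth muscle genes was 0.217 and 0.051 in wild type and 0.111 and -0.228 in Il10-null. That of the fibroblast genes was 0.053 and 0.295 in wild type and 0.178 and -0.32 in Il10-null. Both lists thus overlapped between genotypes and were lowest in the Il10-null sample 2 pool. The part of these cell types in the members' difference was not tested.

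**Figure D1:**
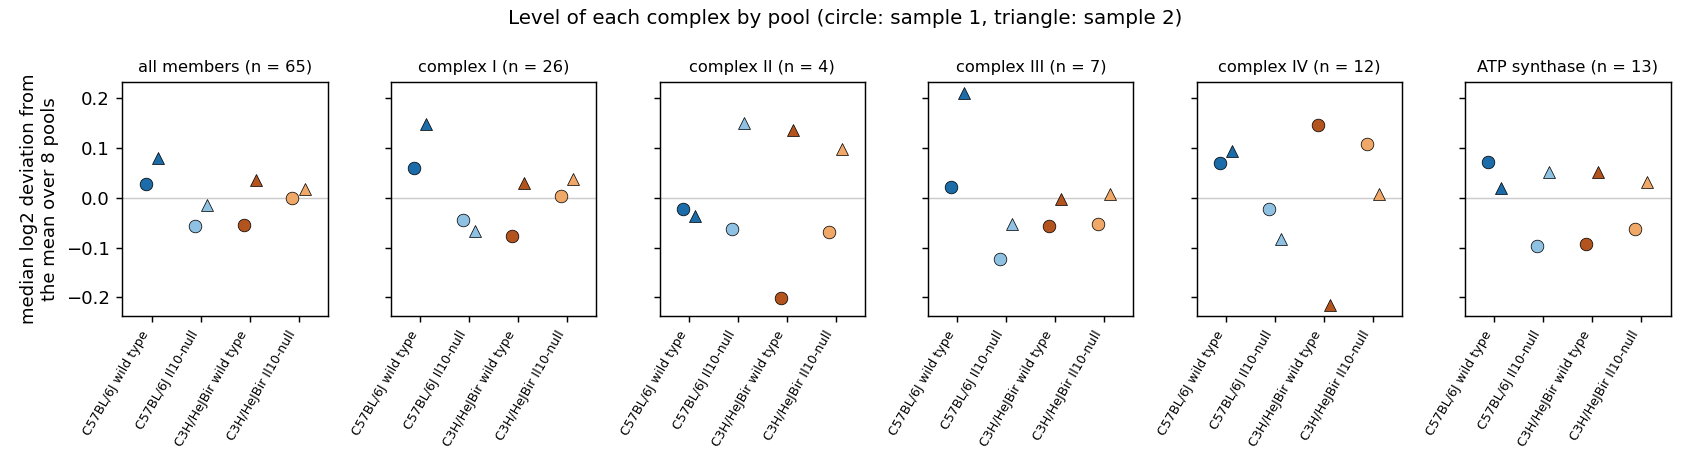
Level of all tested members and of each complex in each pool, as the median over its genes of the log2 deviation from the gene's mean over the 8 pools; circles are sample 1 pools and triangles sample 2 pools. All members stay within -0.057 to 0.081, and for complex I both C57BL/6J wild type pools, at 0.059 and 0.148, lie above the other 6 pools.

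In C3H/HeJBir, the Il10-null minus wild type difference had a median of 0.05 against -0.01 over all probe sets, with 40 of 65 higher (61.5%, against 48.5% of all). No member passed in limma after adjustment, where 0.0134% of all probe sets did, and 1 of 65 (1.54%) had an unadjusted p under 0.05, against 2.83% of all. Both Il10-null pools lay above both wild type pools in 5 of 65 genes, against 11.3% of all probe sets, and below them in 6, against 12.0%, so neither count exceeded the background. Complex I had a median of 0.07 (19 of 26 higher), and the other complexes lay between 0.01 and 0.05. Without the wild type sample 1 pool these medians were 0.0066 for complex I, -0.161 for complex II, -0.040 for complex III, 0.219 for complex IV and -0.042 for the ATP synthase. Without the Il10-null sample 2 pool they were -0.058 for complex II and -0.057 for the ATP synthase, and without the wild type sample 2 pool -0.059 for complex IV. Between the sample 1 pools the median over all members was 0.055, and between the sample 2 pools, hybridised on 1 day, it was 0.002. Leaving out the wild type sample 1 pool turned the median to -0.018, and leaving out the Il10-null sample 1 pool, which stood apart in its markers, gave 0.038. The interval lay within 2-fold for 55 of 65 genes (84.6%), against 65.8% of all tested probe sets.

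The Il10 difference in C3H/HeJBir less that in C57BL/6J was positive for 47 of 65 genes (72.3%, against 49.2% of all) with a median of 0.13 against -0.01. Complex I had the largest median among the complexes with several genes, 0.19 with 20 of 26 positive, and from 0.0934 (without the C57BL/6J wild type sample 2 pool) to 0.297 (without the sample 1 pool of that group) with 1 pool left out. No member passed, as no probe set did (0%), and 2 of 65 (3.08%) had an unadjusted p under 0.05, against 1.50%. The median was 0.035 without the C3H/HeJBir wild type sample 1 pool, 0.068 without the C57BL/6J wild type sample 2 pool and 0.077 without the C57BL/6J Il10-null sample 1 pool. For 33 of the 65 genes the 95% confidence interval of this difference reached beyond 2-fold. It lay within 2-fold for 49.2% of the genes, against 26.8% of all tested probe sets. With sample number as a block it reached beyond 2-fold for 15, and it lay within 2-fold for 44.9% of all. In 4 of 65 genes both Il10-null pools lay on one side of both wild type pools in C57BL/6J and on the other side in C3H/HeJBir, against 2.47% of all tested probe sets.

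**Figure D2:**
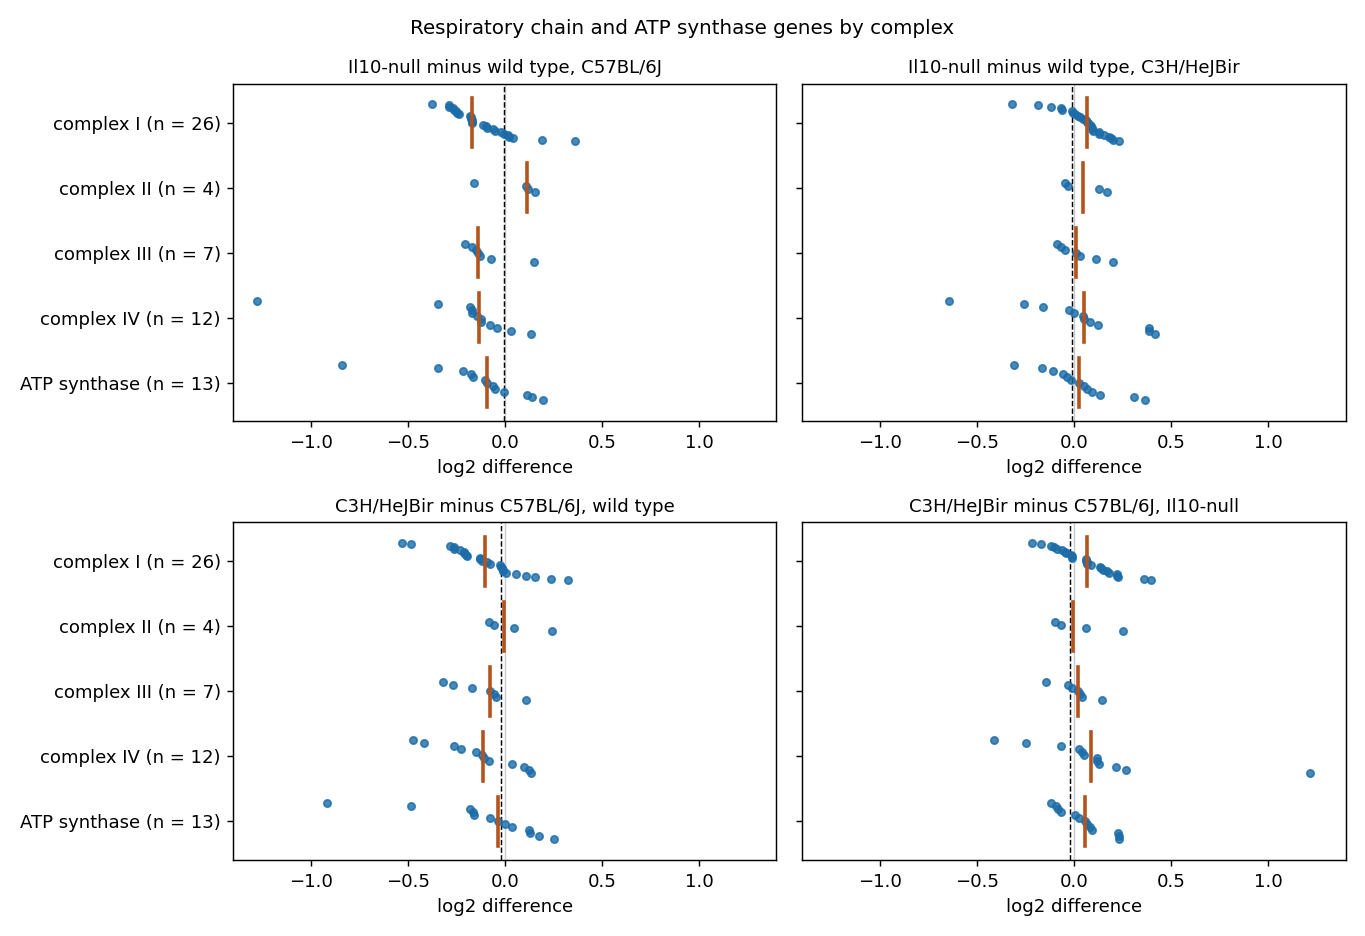
Log2 difference of each tested gene, by complex, in 4 comparisons; each point is a gene, the thick line is the median of the complex and the dashed line the median over all tested probe sets. In the C57BL/6J panel the complex I points centre on -0.17, and in the C3H/HeJBir panel on 0.07. Each strain panel shares pools with both Il10 panels.

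Between the strains, the wild type pools of C3H/HeJBir read slightly lower than those of C57BL/6J, and the Il10-null pools slightly higher. These comparisons use the same pools as the Il10 effects, so they are given side by side and not as separate support. In wild type colon the median was -0.08 against -0.02 over all probe sets, with 43 of 65 lower (66.2%, against 52.8% of all). With the arrays scaled to a common median, 55.4% of members were lower, against 45.8% of all. Both C3H/HeJBir pools lay below both C57BL/6J pools in 14 of 65 genes, against 17.0% of all probe sets, and above them in 2, against 14.0%. In Il10-null colon the median was 0.06 against -0.02, with 41 of 65 higher, against 47.0% of all. Lower were 36.9% of members, or after quantile normalization 50.8%, against 51.2% of all. Here 10 of 65 lay above without overlap, against 11.9% of all, and 2 below, against 15.3%. Averaged over genotypes, the median strain difference was -0.00, with 34 of 65 lower (52.3%, against 54.1% of all). With a common median, 35.4% of members were lower, against 45.8% of all. The Il10 difference averaged over strains had a median of -0.03 against -0.01, with 37 of 65 lower (56.9%, against 52.6%). There no member passed, as no probe set did (0%), and 1 of 65, Cox7a1, had an unadjusted p under 0.05, against 3.09% of all. No member had all its Il10-null pools above all wild type pools, against 1.05% of all, and none had all C3H/HeJBir pools below all C57BL/6J pools, against 3.81%.

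No member passed the threshold in any strain comparison, where 0.403% (wild type), 0.295% (Il10-null) and 1.11% (average) of all probe sets did. At an unadjusted p under 0.05 there were 2 of 65 (3.08%, against 5.68% of all) in wild type, 1 (1.54%, against 5.17%) in Il10-null and 1 (against 8.43%) on average. The wild type median was -0.030 without the C3H/HeJBir sample 1 pool. In Il10-null colon the median was 0.015 without the C57BL/6J sample 1 pool, 0.016 without the C3H/HeJBir sample 2 pool and 0.101 without the C57BL/6J sample 2 pool.

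Complex I takes electrons from NADH through the flavin of Ndufv1 and the iron-sulfur centres of Ndufv2 and Ndufs1. Ndufs4, an accessory subunit, had the lowest Il10 difference of the complex in C3H/HeJBir, from 62.5 and 48.4 to 50.4 and 34.6, with overlap (-0.32 ± 0.28, limma adjusted p 0.999). Ndufv1 read 2427 and 2705 in C57BL/6J wild type, 2185 and 2065 in C57BL/6J Il10-null, 2355 and 2014 in C3H/HeJBir wild type and 2556 and 2424 in C3H/HeJBir Il10-null. Its Il10-null pools thus lay below wild type in C57BL/6J (-0.27) and above it in C3H/HeJBir (0.19), and the difference of 0.46 ± 0.31 did not pass (limma adjusted p 1.00). Ndufb7, an accessory subunit, had the largest decrease of the complex in C57BL/6J, from 1449 and 1246 to 1206 and 883 (-0.38 ± 0.25, limma adjusted p 1.00). The largest increase there was that of Ndufa10, an accessory subunit on the matrix side, from 100.3 and 105 to 132 and 139 (0.36 ± 0.31, limma adjusted p 1.00). In C3H/HeJBir the same gene read 173 and 86.8 in wild type and 129 and 134 in Il10-null, with the groups overlapping. Ndufb3, an accessory subunit, differed by 0.19 ± 0.26 in C57BL/6J and ran from 367 to 524. Ndufa9, near the ubiquinone site, ran from 1331 to 2207, and Ndufb10 from 907 to 1312.

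Ndufa3, a membrane-arm accessory subunit, had the largest strain difference within complex I in wild type colon. It read 2455 and 2237 in C57BL/6J wild type and 1796 and 1464 in C3H/HeJBir wild type, without overlap (-0.53 ± 0.24, limma adjusted p 0.894). The Il10-null pools read 2223 and 1931 in C57BL/6J and 2014 and 1683 in C3H/HeJBir, and these overlapped. A further tested probe set of Ndufa3, with a mean of 83.0, had a strain difference of -0.08 in wild type colon. Ndufc1 showed a like pattern in wild type colon, at 1251 and 1399 against 881 and 1012 (-0.48 ± 0.23, limma adjusted p 0.961).

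Ndufaf1, a chaperone that helps to build complex I and is not part of the finished enzyme, had the smallest adjusted p of any member in a strain comparison. It read 79.8 and 96.0 in C57BL/6J wild type, 118 and 101 in C57BL/6J Il10-null, 185 and 148 in C3H/HeJBir wild type and 140.1 and 146 in C3H/HeJBir Il10-null. All 4 C3H/HeJBir pools lay above all 4 C57BL/6J pools, a separation found in this direction for Ndufaf1 alone among the 65 genes and for 2.67% of all probe sets. The average strain difference was 0.60 ± 0.16, with a limma adjusted p of 0.226, and over the alternatives the adjusted p ran from 0.125 to 0.843. The highest of these came from averaging its probe sets, where the difference was 0.29, since its further probe set read between 10.9 and 52.4 with no such separation. Ndufaf4, the other assembly factor, read between 57.6 and 126 with all groups overlapping except in C57BL/6J, where both Il10-null pools lay lower (-0.33 ± 0.31).

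Complex II oxidises succinate and links the chain to the citric acid cycle. The iron-sulfur subunit Sdhb was among the steadiest members, with a highest pool 1.18 times the lowest. It read 1580 and 1635 in C57BL/6J wild type, 1390 and 1483 in C57BL/6J Il10-null, 1527 and 1566 in C3H/HeJBir wild type and 1509 and 1491 in C3H/HeJBir Il10-null. All Il10-null pools lay below all wild type pools, by a small amount (average -0.10 ± 0.15, limma adjusted p 1.00). Sdhb and Cox7a1 were the 2 of 65 genes with this separation, which 0.845% of all probe sets showed. The flavoprotein subunit Sdha ran from 179 to 233, and the membrane anchor Sdhc from 732 to 1009. Sdhd, the other anchor, differed mainly between sample numbers. Its sample 1 pools read 1472 to 2160 and its sample 2 pools 2142 to 3233, nearly without overlap (0.70 ± 0.18, limma adjusted p 0.133).

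No complex III member passed in any comparison. Uqcrh, the hinge protein that contacts cytochrome c1, had the largest decrease in C57BL/6J, from 2604 and 3191 to 2435 and 2566 (-0.20 ± 0.23, limma adjusted p 1.00). Uqcrc2, a core subunit, had the largest strain difference in wild type colon, from 1689 and 2014 (C57BL/6J) to 1641 and 1328 (C3H/HeJBir) (-0.32 ± 0.25, limma adjusted p 1.00). Uqcrb, a ubiquinone-binding subunit, read 2255 and 2510 in C57BL/6J wild type and 2136 and 1831 in C3H/HeJBir wild type (-0.27 ± 0.24). Uqcr10 stayed between 2280 and 2664 and Uqcrq between 3515 and 4209. Cycs, the mobile carrier between complexes III and IV and also a trigger of apoptosis when released, read 203 and 216 in C57BL/6J wild type, 257 and 308 in C57BL/6J Il10-null, 218 and 282 in C3H/HeJBir wild type and 296 and 206 in C3H/HeJBir Il10-null. Both Il10-null pools lay above both wild type pools in C57BL/6J (0.41 ± 0.26, limma adjusted p 1.00), and the groups overlapped in C3H/HeJBir (-0.00 ± 0.26).

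Complex IV has paired isoforms for several nuclear subunits, one used in most tissues and others in muscle or testis. Cox7a1, the isoform of heart and skeletal muscle, was the member with the lowest unadjusted p in the average Il10 comparison. It read 160.3 and 144 in C57BL/6J wild type, 123 and 111 in C57BL/6J Il10-null, 146 and 132 in C3H/HeJBir wild type and 88.7 and 81.8 in C3H/HeJBir Il10-null. The Il10-null pools were lower in both strains without overlap, by -0.35 ± 0.22 in C57BL/6J and -0.64 ± 0.22 in C3H/HeJBir. Within sample numbers the differences were -0.35 and -0.34 in C57BL/6J and -0.66 and -0.62 in C3H/HeJBir. The average of -0.49 ± 0.15 (95% confidence interval -0.84 to -0.14) had an unadjusted limma p of 0.0116 and an adjusted p of 1.00, which ran from 0.546 to 1.00 over the alternatives. Its counterpart in other tissues, Cox7a2, read 2878 to 3982 with all groups overlapping.

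Marker lists for muscle and fat cells were read beside Cox7a1. Summed over 9 of 9 smooth muscle genes on the array, the pools read 16292 and 15462 in C57BL/6J wild type, 15306 and 12150 in C57BL/6J Il10-null, 15340 and 12896 in C3H/HeJBir wild type and 10031 and 17637 in C3H/HeJBir Il10-null. The highest and the lowest sums were both in the C3H/HeJBir Il10-null group. Of 9 smooth muscle genes tested, 8 were lower in Il10-null pools on average, with a median of -0.12, and none passed. Over 13 skeletal muscle genes, 6 of them tested, the sums ran from 684 to 706 and from 628 to 691 in the C57BL/6J groups and from 513 to 1088 and from 636 to 737 in the C3H/HeJBir groups, wild type before Il10-null. All 6 tested genes were lower in Il10-null pools on average, with a median of -0.21. Adipocyte genes, of which 4 were tested, were lower for all 4, with a median of -0.23. Brown adipocyte genes, 5 on the array with 2 tested, include the member Cox8b. They summed to 206 and 284 in C57BL/6J wild type and 233 and 211 in C57BL/6J Il10-null. In C3H/HeJBir they summed to 291 and 170 in wild type and 317 and 244 in Il10-null, so the genotypes overlapped in each strain. The part of these cell types in the Cox7a1 difference was not tested.

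Cox6b1, the isoform of a subunit on the outer face of complex IV that most tissues use, had the widest range over pools of the 65 tested members. It read 91.6 and 121 in C57BL/6J wild type, 22.4 and 58.0 in C57BL/6J Il10-null, 86.5 and 60.9 in C3H/HeJBir wild type and 127 and 79.6 in C3H/HeJBir Il10-null. Within C57BL/6J the Il10-null pools lay lower without overlap (-1.28 ± 0.39, limma adjusted p 1.00), and in C3H/HeJBir the groups overlapped (0.42 ± 0.39). The effects differed by 1.69 ± 0.55 (unadjusted limma p 0.0146, adjusted p 1.00), and the strain difference in Il10-null colon was 1.22 ± 0.39 (limma adjusted p 0.604). Leaving out the C57BL/6J Il10-null sample 1 pool moved the difference in C57BL/6J to -0.75. This probe set carries a suffix that the array's maker uses for probe sets designed with relaxed rules (_r_at), as do those of Atp5g1, Cox6b2, Cox8b and Ndufb2. Another suffix (_f_at) was carried by 10 of the 65, including those of Ndufa3, Uqcrb, Uqcrc2, Cox4i1 and Atp5md. What the suffixes mean for these readings was not tested.

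Cox7b, a small subunit, had an Il10 difference of 0.39 ± 0.27 in C3H/HeJBir and ran from 1130 to 2014. The isoform pairs gave uneven readings. Cox6a1, the isoform of most tissues, read 4133 to 4817, while Cox6a2, that of heart and skeletal muscle, read 11.7 to 53.5 and was not tested. Cox8b, a muscle and brown fat isoform, read 62.4 to 165, and a further probe set for it 4.92 to 21.6. The testis isoform Cox8c read 103 to 213 on its brighter probe set and 1.06 to 21.2 on the other. Cox6b2, also known from testis, had 3 probe sets, which read 103 to 257, 59.8 to 109 and 3.22 to 15.2. For these isoforms the probe sets thus gave no single account of whether the colon held their mRNA. Cox7a2l, a supercomplex assembly factor of which C57BL/6J is known to carry a shortened form, read 617 to 802 in C57BL/6J and 685 to 815 in C3H/HeJBir, with an average strain difference of 0.11 ± 0.15 (limma adjusted p 0.997).

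**Figure D3:**
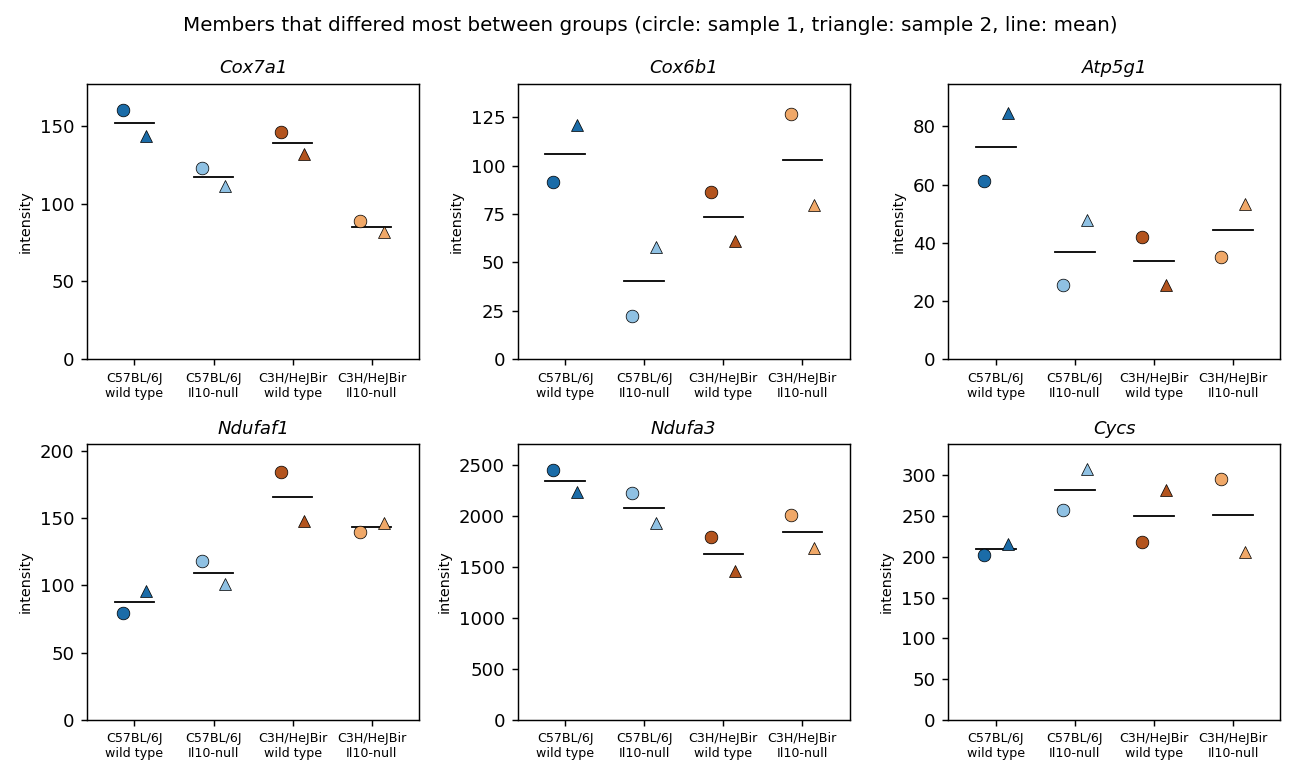
Intensity of 6 members in each pool on linear axes that start at 0, with a short line at the mean of each group; circles are sample 1 pools and triangles sample 2 pools. Cox7a1 is lower in the Il10-null pools of both strains, Cox6b1 is low in the C57BL/6J Il10-null pools (22.4 and 58.0), and Ndufaf1 is higher in all C3H/HeJBir pools.

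The ATP synthase consists of a catalytic head, a stalk and a membrane rotor. The rotor ring is built from subunit c, which Atp5g1 and Atp5g2 both encode. Atp5g1 read 61.1 and 84.8 in C57BL/6J wild type, 25.6 and 47.8 in C57BL/6J Il10-null, 42.0 and 25.5 in C3H/HeJBir wild type and 35.1 and 53.4 in C3H/HeJBir Il10-null. The C57BL/6J wild type pools lay above all others, so that both the Il10 difference in C57BL/6J (-0.84 ± 0.34, limma adjusted p 1.00) and the strain difference in wild type (-0.92 ± 0.34, limma adjusted p 0.702) were negative. These differences share the C57BL/6J wild type pools. A further probe set of Atp5g1, just below the filter, read 27.5 and 49.4 in C57BL/6J wild type and 25.1 and 29.7 in C57BL/6J Il10-null. In C3H/HeJBir it read 57.2 and 17.6 in wild type and 56.9 and 31.2 in Il10-null. On it the C57BL/6J wild type pools overlapped each other group. Atp5g2 ran from 266 to 351. Atp5pb, subunit b of the stalk, also lay lower in the Il10-null pools of C57BL/6J, at 84.2 and 56.8 against 49.4 and 55.0 (-0.35 ± 0.34), with overlap in C3H/HeJBir. The head subunit Atp5a1 ran from 3022 to 3324, and Atp5c1 from 2126 to 2760. Atp5d, the delta subunit, ran from 188 to 328, and its 4 further probe sets read 4.75 to 371. Atp5k, a small membrane subunit, had an Il10 difference of -0.31 ± 0.23 in C3H/HeJBir, and Atp5mpl one of 0.20 ± 0.26 in C57BL/6J.

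The members were also read by sample number. The pools labelled sample 1 and sample 2 differed, sample 2 minus sample 1 with group in the model, by a median of 0.05 over the members and -0.06 over all probe sets. With the arrays scaled to a common median these became 0.25 and 0.14, so the members' shift relative to all probe sets was 0.11 with the deposited scaling and 0.12 with the common median. After quantile normalization it was 0.0155, with medians of 0.03 and 0.01. With the deposited scaling 37 of 65 members were higher in sample 2, against 42.2% of all. Lower were 43.1% of members, or with a common median 18.5%, against 33.9% of all. All 4 sample 2 pools lay above all 4 sample 1 pools in 11 of 65 genes, against 5.86% of all probe sets, and below them in 5, against 8.95%. No member passed after adjustment, where 0.148% of all probe sets did, and 14 of 65 (21.5%) had an unadjusted p under 0.05, against 20.8%.

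Cox6b2 had the smallest adjusted p, 0.0894 in limma. Its sample 1 pools read 187 to 257 and its sample 2 pools 103 to 123 (-0.82 ± 0.13). A further tested probe set of the gene differed by -0.04. Cox4i1, the isoform of most tissues of a large complex IV subunit, read 175 to 215 in sample 1 pools and 93.3 to 166 in sample 2 pools (-0.59 ± 0.16, limma adjusted p 0.145). Ndufa8 read 458 to 576 and 312 to 380.3 (-0.55 ± 0.14, limma adjusted p 0.130). In the other direction, Atp5md, a small ATP synthase subunit also called DAPIT, read 2854 to 3434 in sample 1 pools and 4249 to 5717 in sample 2 pools (0.65 ± 0.14, limma adjusted p 0.120). Atp5j, a stalk subunit, read 1057 to 1284 and 1333 to 1562 (0.35 ± 0.13, limma adjusted p 0.207). Uqcr11 of complex III read 1335 to 1698 and 1983 to 2208 (0.49 ± 0.14, limma adjusted p 0.145). None of these ranges overlapped. The sample 2 pools shared a hybridisation day that no sample 1 pool had, so pool and day cannot be told apart here.

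**Figure D4:**
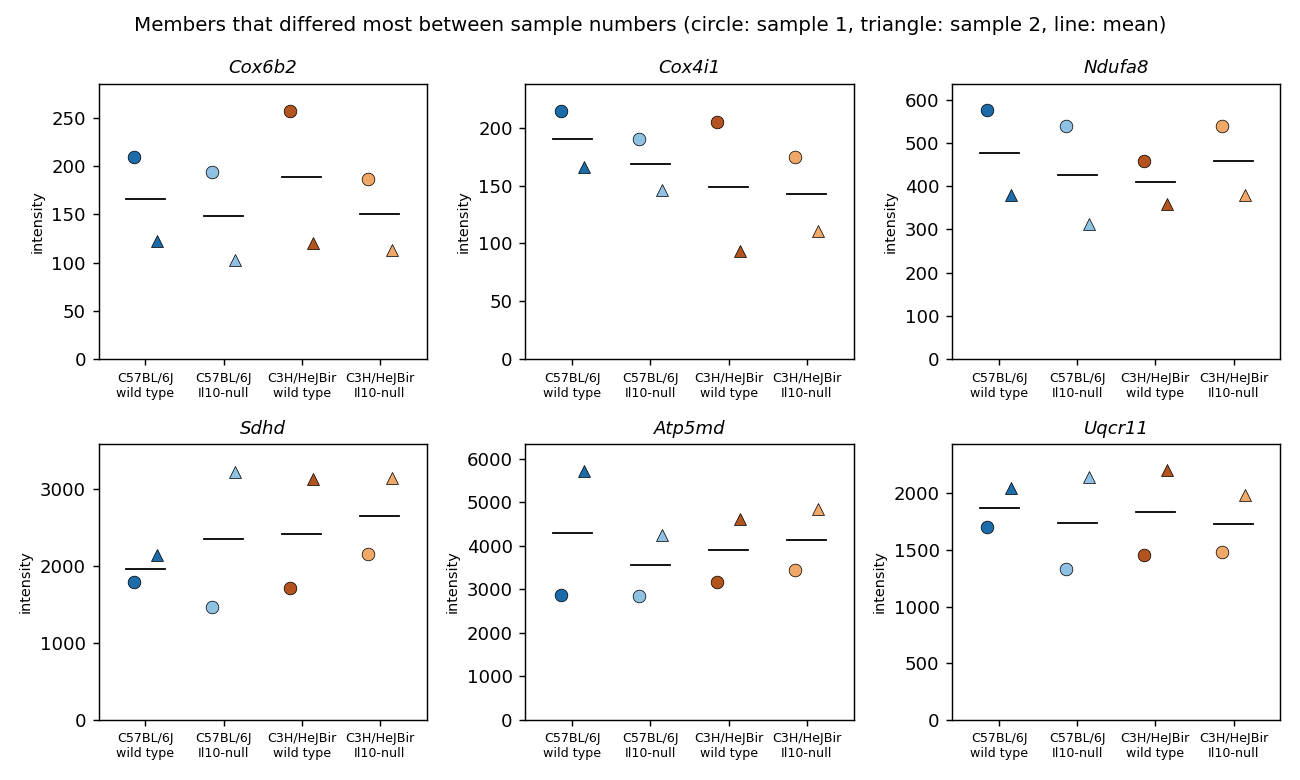
Intensity of the 6 members with the largest sample number differences that also had an unadjusted p under 0.05, by pool on linear axes that start at 0; circles are sample 1 pools, triangles sample 2 pools, and short lines group means. Triangles lie below circles for Cox6b2, Cox4i1 and Ndufa8 and above them for Atp5md and Uqcr11 in every group, and Sdhd sample 2 pools run from 2142 to 3233.

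Other genes of mitochondrial energy metabolism were read from lists written from general knowledge. Across the 7 comparisons of strain and genotype, no gene passed among 15 tested of the citric acid cycle and pyruvate dehydrogenase, 14 of glycolysis, 8 assembly factors outside the rule, 12 carriers and porins, 11 regulators of mitochondrial biogenesis and 13 chaperones and redox enzymes. In C57BL/6J the medians of the Il10 difference were -0.04 for the citric acid cycle, -0.06 for carriers and porins, -0.07 for assembly factors and -0.02 for 56 genes of the mitochondrial ribosome. Nnt, a redox enzyme of the inner membrane of which C57BL/6J is known to carry a deletion, read 42.3 and 39.7 in C57BL/6J wild type and 67.8 to 159 in the other groups (Il10 difference in C57BL/6J 1.36 ± 0.36, limma adjusted p 1.00). Ppargc1a, the coactivator that drives mitochondrial biogenesis, read 9.54 to 98.9 with all groups overlapping.

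The mitochondrial ribosome held the single gene that passed. Mrpl35, a protein of its large subunit, was lower in C3H/HeJBir. It read 229.9 and 282 in C57BL/6J wild type, 249.7 and 297 in C57BL/6J Il10-null, 86.9 and 138 in C3H/HeJBir wild type and 107 and 125 in C3H/HeJBir Il10-null. The average strain difference was -1.15 ± 0.19 (limma adjusted p 0.0348), with all C3H/HeJBir pools below all C57BL/6J pools. Leaving out 1 pool took the adjusted p to between 0.0552 and 0.155 for 7 of the 8 pools, and to 0.0379 for the C3H/HeJBir wild type sample 2 pool. The call was also lost with a smaller pseudocount (0.0505), no filter (0.0768), quantile normalization (0.0553) or a common median (0.110).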

How the data were processed

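Each array measured 1 pool of total colon RNA. The deposited values are intensities, 1 per probe set on a linear scale; the authors brought the arrays to a common level (means trimmed by 2% differed by a ratio of 1.01), and no source used here names the summary algorithm. That scaling was kept. The intensity plus 11.07 (the 20th percentile) was taken to log2 from the deposited values, and probe sets with a mean of at least 37.0 (the 40th percentile), 7453 of 12422, were tested with limma 3.58.1 in R 4.3.3 (4 group means, 4 residual degrees of freedom, two-sided, Benjamini-Hochberg, threshold 0.05). The sample number was added for its own comparison. The script was tested on simulated data. Array number, 2 pools a group, limits the precision. Members and lists were chosen with earlier results of these data known.

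Genes named were every member that passed; per comparison the 5 tested members with the largest difference in each direction and the largest of each complex; members whose probe sets departed by more than 1; and the isoform groups. From each pathway list they were the genes that passed and the 2 with the largest difference, of which a few are given. Atp5a1, Atp5c1, Ndufb11, Ndufs1, Ndufv1, Sdha, Uqcr10 and Uqcrq were added after their values were seen. Symbols of all 72 genes matched RefSeq. Deviations of pools with the same sample number correlated across groups by 0.198 to 0.332 in all 6 pairs. Over the tested members alone these correlations were higher, at 0.367 to 0.611. All sample 2 pools shared a hybridisation day, so these correlations cannot tell a pairing of pools from the day. The main fit has no block, and its standard errors include the sample number difference. Alternatives were other pseudocounts, filters, scalings, moderation, blocks, averaged probe sets and each pool left out. Control probe sets for RNA quality were not analysed here.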

Additional observations from a re-analysis of the deposited data

Results flagged for a closer look

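In 4 of 65 members, against 2.47% of all tested probe sets, every Il10-null pool moved one way from every wild type pool in C57BL/6J and the opposite way in C3H/HeJBir. For Ndufv1 the Il10 effects were -0.27 and 0.19, a difference of 0.46. Ndufb11, an accessory subunit of complex I, had effects of -0.17 and 0.05 and a difference of 0.22. For Uqcrq of complex III they were -0.07 and 0.11, differing by 0.19. The assembly factor Ndufaf1 went the other way, at 0.29 and -0.19, a difference of -0.48. The interaction test in limma gave an adjusted p of 1.00 for each, so none of these differences between strains passed. Groups of 2 pools are too small for a search for single outlying pools.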

How the results depend on the processing

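No member passed in any comparison of strain or genotype under any alternative run. In the sample number difference, Cox6b2 passed with a pseudocount at the 50th percentile (1 member), a filter at the 60th percentile (1) and a threshold of 0.1 (1), and with trended robust moderation so did Atp5md (2). The replicate block, with sample number as the block, left 0 members called and changed no call of a member. Every group has a pool of each sample number, so this block cannot move a difference, and the C57BL/6J median of -0.124 stayed by design. Its 95% confidence interval lay within 2-fold for 59 of 65 members (Il10, C57BL/6J) and 59 (Il10, C3H/HeJBir). For the strain these were 58 (wild type) and 62 (Il10-null). The shares of all probe sets were 78%, 75.6%, 73.4% and 73.1%. Without the block the counts were 54, 55, 54 and 55.

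The members' median moved to 0.0678 (difference of Il10 effects) and -0.00318 (strain, Il10-null) with quantile normalization. With a common median it moved to -0.0262 (strain, wild type), 0.0422 (average strain) and 0.254 (sample number). The median over all probe sets was then 0.03, 0.0222 and 0.136. Averaged probe sets gave -0.0106 (sample number). Leaving out each pool, the medians ran from -0.131 to -0.0617 (Il10, C57BL/6J), -0.0178 to 0.051 (Il10, C3H/HeJBir), 0.0349 to 0.175 (difference), -0.0796 to -0.0304 (strain, wild type) and 0.0153 to 0.101 (strain, Il10-null).

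Single genes turned sign as follows, and the cause was not tested. Averaged probe sets gave -0.020 for Ndufaf1 (Il10, C57BL/6J) and -0.11 for Ndufaf4 (strain, wild type). Quantile normalization gave 0.0079 for Cycs (Il10, C3H/HeJBir) and 0.09 for Ndufaf4 (sample number), which a common median put at 0.13. Hybridisation day as a block gave 0.058 for Atp5g1 (average Il10).

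Leaving out each pool in turn, ranges that crossed 0 were, for the Il10 effect in C57BL/6J, Ndufb3 -0.0045 to 0.38. For the Il10 effect in C3H/HeJBir they were Cox6b2 -0.77 to 0.25, Sdhd -0.26 to 0.60, Atp5pb -0.054 to 0.79, Cox8c -0.012 to 0.79, Cycs -0.25 to 0.25. For the difference of the Il10 effects they were Ndufs4 -0.53 to 0.0060, Ndufa10 -0.73 to 0.18, Sdhc -0.37 to 0.085. For the wild type strain difference they were Atp5d -0.088 to 0.59, Ndufaf4 -0.015 to 0.59, Sdhd -0.19 to 0.67. For the Il10-null strain difference they were Atp5g1 -0.11 to 0.57, Ndufb10 -0.48 to 0.047, Sdhd -0.31 to 0.82, Cox4i1 -0.55 to 0.061, Cycs -0.43 to 0.069, Uqcrb -0.29 to 0.0011. For the average Il10 effect they were Sdhd -0.12 to 0.44, Cox6b2 -0.47 to 0.041, Ndufa10 -0.0073 to 0.45. For the average strain difference they were Cycs -0.098 to 0.15, Sdhd -0.034 to 0.53. For the sample number difference they were Ndufaf4 -0.28 to 0.095, Cycs -0.054 to 0.23.

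With 2 pools a group, the 95% confidence interval of the difference of Il10 effects reached beyond 2-fold for 33 of 65 members, or for 15 with the replicate block (chosen after seeing the data). Over all tested probe sets it lay within 2-fold for 26.8%, or for 44.9% with that block. Members below the filter have no test.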

Other observations

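Genes of glycolysis, which turns glucose into pyruvate in the cytosol, had a median Il10 difference of 0.00 in C57BL/6J (7 of 14 higher) and 0.20 in C3H/HeJBir (13 of 14 higher). None passed in limma. Hk2, a hexokinase, read 502 and 811 in C3H/HeJBir wild type and 1596 and 875 in C3H/HeJBir Il10-null (0.88 ± 0.34, limma adjusted p 0.999), and the highest reading was that of the sample 1 pool that stood apart in its markers. Pfkp, a phosphofructokinase, read 261 and 231 against 427 and 343 (0.62 ± 0.24, limma adjusted p 0.999). Pgk1 read 1321 and 1668 against 2151 and 1805 in C57BL/6J and 1042 and 1501 against 2301 and 1536 in C3H/HeJBir, higher in Il10-null without overlap in each strain (average 0.49 ± 0.21, limma adjusted p 1.00).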
